A study of Homo sapiens with 6 samples.

Results

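Natriuretic peptide and cGMP signalling was described here through 10 genes: the natriuretic peptide receptors NPR1, NPR2 and NPR3, the soluble guanylate cyclase subunits GUCY1A1 and GUCY1B1, the cGMP-dependent kinases PRKG1 and PRKG2, and the phosphodiesterases PDE5A, PDE3A and PDE9A. Of these 10 genes, 8 had a row among the 19589 features of the authors' deposited table. GUCY1A1 and GUCY1B1 had no row matching by gene ID or transcript accession and were not analysed here. The genes were picked by their place in the pathway, after results of the same siHOTAIR against siNC comparison had been seen, among them the large rise of NPR3. Their fold changes in that comparison are therefore given as a description, without a test.

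The transcripts were measured by RNA sequencing in libraries labelled HepG2, an established liver tumour line. Cells had received a small interfering RNA against the long non-coding RNA HOTAIR (siHOTAIR) or a negative control small interfering RNA (siNC). All libraries were made from total RNA depleted of ribosomal RNA, and no other genotype or treatment separated the groups. The labels describe 3 siHOTAIR and 3 siNC libraries, and nothing in them says that these came from separate cultures, so the spread between libraries may be technical. The deposited means are whole-number sums of reads from only 5 libraries, 3 of siHOTAIR and 2 of siNC, so 1 labelled siNC library is unaccounted for.

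Natriuretic peptides bind receptors at the cell surface. NPR1 and NPR2 carry a guanylate cyclase inside the cell and make cGMP when bound, whereas NPR3 has no cyclase, takes the peptides up and clears them. cGMP acts through its kinases, through ion channels and through phosphodiesterases that break down cyclic nucleotides. In the liver and in adipose tissue this signalling is known for effects on energy and lipid metabolism, and in vessels for the relaxation of smooth muscle.

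Promoter sequence is shown for the 3 receptors, since they bind related peptides and moved in different directions. Each line gives the 150 bases from 250 to 101 before the RefSeq transcription start, 5′ to 3′ on the plus strand, which is the strand of all 3 genes. Capitals mark a GC box, with the letters GGGCGG, and a CCAAT box, both searched on both strands, so ATTGG is a CCAAT box read on the other strand.
NPR1, GRCh38.p14 chr1:153678438-153678587: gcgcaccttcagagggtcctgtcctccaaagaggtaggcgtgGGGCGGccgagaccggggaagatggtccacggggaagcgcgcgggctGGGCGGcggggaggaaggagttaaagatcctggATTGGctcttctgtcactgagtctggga
NPR2, GRCh38.p14 chr9:35791341-35791490: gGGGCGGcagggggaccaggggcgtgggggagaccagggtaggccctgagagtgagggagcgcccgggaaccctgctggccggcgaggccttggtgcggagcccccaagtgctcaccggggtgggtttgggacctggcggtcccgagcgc
NPR3, GRCh38.p14 chr5:32690622-32690771: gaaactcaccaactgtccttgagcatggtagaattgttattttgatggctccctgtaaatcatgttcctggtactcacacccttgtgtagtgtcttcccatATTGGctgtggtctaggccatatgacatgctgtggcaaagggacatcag

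The NPR1 window was 64.7% G and C, with 11 CpG, 2 GC boxes and 1 CCAAT box. In the NPR2 window G and C made up 75.3%, and 11 CpG and 1 GC box were found. The NPR3 window was 46% G and C, held no CpG and no GC box, and had 1 CCAAT box. Among 35116 RefSeq promoter windows of the same length, 25.8% held a GC box, 18.9% a CCAAT box and 6.3% the TATA box letters TATAAA, which none of these 3 windows held. A lower share of G and C was found in 90.7% of those windows than in NPR2, in 69.5% than in NPR1 and in 27.3% than in NPR3. RefSeq gives NPR3 a further start downstream, whose window overlaps an annotated exon and is not printed. That window differed from the printed one: it was 56% G and C and held 6 CpG, with no GC box and no CCAAT box. The lack of CpG thus holds for the printed NPR3 start only. A match describes letters only.

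The targeted gene was lower in the siHOTAIR libraries. In siNC, HOTAIR was at 202 and 150 normalized counts, and in siHOTAIR at 62.4, 78.2 and 59.7, and the groups did not overlap. Its log2 fold change in the authors' deposited table was -1.37 (SE 0.197). Size factors of the libraries were 1.19 and 0.893 for siNC, called a and b below, and 1.15, 0.934 and 0.888 for siHOTAIR, called a, b and c, and the deposited means sum to 9.41e+06. Library values are in this order throughout, the libraries' replicate numbers are unknown, and only features with a mean of up to 130 allow such values.

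Markers of hepatocytes were nearly absent. Of 10 listed markers 6 had a row, and their means sum to 6.37 normalized counts (5.87 in siNC and 6.71 in siHOTAIR). APOA1, TF, SERPINA1, FGB and AHSG, all genes of secreted liver proteins, had means under 1 in the authors' deposited table, and HNF4A, a hepatocyte transcription factor, had 5.06. ALB, AFP, APOB and TTR were not analysed here. These values go against the HepG2 label, so the libraries are called by it only as labelled. Smooth muscle markers (8 of 8 with a row) summed to 514 in siNC and 550 in siHOTAIR, with MYOCD under 1. The sums were 1344 and 1959 for endothelial markers (6 of 8 with a row), 1255 and 2325 for fibroblast and stellate markers (6 of 9) and 230 and 199 for leukocyte markers (5 of 7). A single gene made up most of each of these sums. In siNC and siHOTAIR, SMTN was at 360 and 357, ENG at 1260 and 1831, COL1A1 at 1067 and 1941 and CD68 at 186 and 134. The other endothelial markers with a row had means from 2.74 (TEK) to 83.2 (CDH5). Those of the other fibroblast and stellate markers ran from 3.04 (LUM) to 254 (PDGFRB). In bulk RNA, fewer cells of a type and less RNA per cell cannot be told apart.

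Between the groups, NPR3, NPR1 and PDE9A rose after siHOTAIR, NPR2 and PDE3A fell, and PDE5A was not called. A gene is said to have risen or fallen, or to be called, when its adjusted p in the authors' deposited table was under 0.05. Of the 6 members with an adjusted p, 5 were called, 3 that rose and 2 that fell. Over all 14597 features with an adjusted p, 40.4% were called, 20% rose and 20.4% fell. Since earlier results of this contrast were known when the members were picked, nothing is read from the members' share. PRKG1 and PRKG2 had too few reads to receive an adjusted p. The median log2 fold change of the 6 members was 0.33, against 0.01 over all features with an adjusted p.

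**Figure D1:**
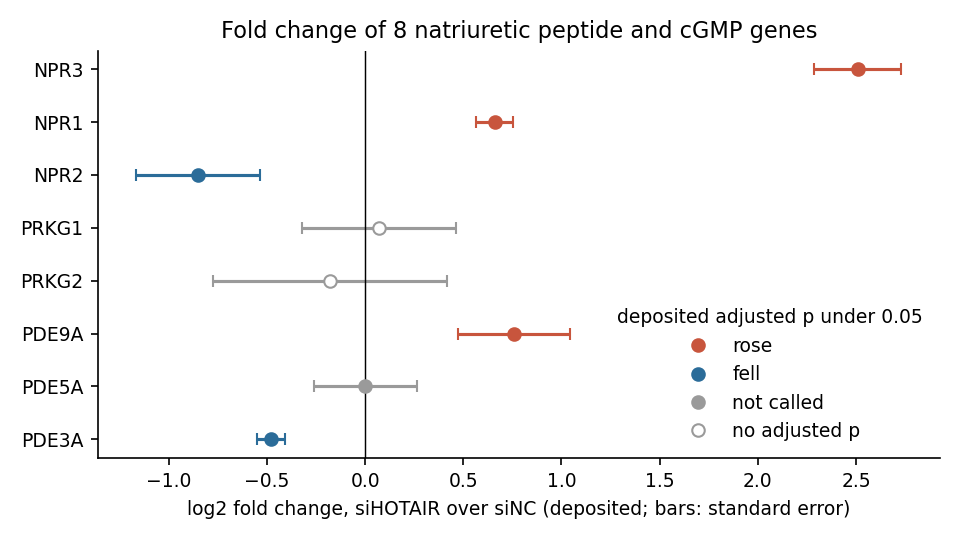
Log2 fold change, siHOTAIR over siNC, of the 8 members with a row (x axis), as given in the authors' deposited table, with bars of 1 standard error. NPR3 lies at 2.51, well to the right of the other members, which lie between -0.85 and 0.76.

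Among the receptors, NPR3 (gene ID 4883), the clearance receptor, showed the largest difference of the 8 members. It was at 29.3 and 33.6 normalized counts in siNC (35 and 30 reads) and at 201, 203 and 167 in siHOTAIR (232, 190 and 148 reads). The groups did not overlap, and the lowest siHOTAIR library was 4.96 times the highest siNC library. The mean went from 31.5 ± 3.05 (SD, n = 2) to 190 ± 20.5 (SD, n = 3), a ratio of 6.05. The authors' deposited table, whose fold changes are shrunken toward 0, gives NPR3 a log2 fold change of 2.51 (SE 0.222), or 5.71-fold, with a 95% interval of 2.08 to 2.95 from that SE. That was the 7th highest of the 14597 fold changes with an adjusted p. Its mean of 127 stood above that of 40.7% of these features. In the marker lists, 3 of 5 fibroblast and stellate markers with an adjusted p rose in the authors' deposited table, COL1A1 by 0.86, PDGFRB by 1.24 and DCN by 1.77 on the log2 scale, beside 20% of all features that rose. The other 2 were not called in the authors' deposited table: COL3A1, at -0.07, and RGS5, at -1.07, with 15.1 and 13.4 normalized counts in siNC and 3.47, 7.49 and 5.63 in siHOTAIR. Of the endothelial markers 2 of 5 rose, ENG by 0.54 and VWF by 1.85 in the authors' deposited table. VWF had only 0 and 1 reads in siNC and 8, 5 and 12 in siHOTAIR. CLDN5 (0.87), CDH5 (0.47) and PECAM1 (-0.16) were not called. Of the smooth muscle markers 1 of 6 rose, MYH11, by 0.97. The other 5 were not called: LMOD1 (0.66), TAGLN (0.02), SMTN (-0.01), DES (-0.10) and ACTA2 (-0.47). Whether cells of these types were present, and their part in the rise of NPR3, was not tested.

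NPR1 (gene ID 4881), the receptor of the atrial and B-type peptides, was much more abundant than NPR3 and rose less. Its mean in the authors' deposited table was 603, which with the deposited fold change implies 448 normalized counts in siNC and 706 in siHOTAIR. Reads per library could not be recovered at this level, so no spread between libraries is given. The log2 fold change in the authors' deposited table was 0.66 (SE 0.0953, 95% interval 0.47 to 0.84), or 1.58-fold higher, which ranked 1301 of 14597 from the highest.

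NPR2 (gene ID 4882), the receptor of the C-type peptide, fell. The siNC libraries were at 36.8 and 57.1 normalized counts (44 and 51 reads), and the siHOTAIR libraries at 26, 21.4 and 25.9 (30, 20 and 23 reads). Each siHOTAIR value lay below both siNC values, which themselves lay far apart. The mean fell from 47 ± 14.4 (SD, n = 2) to 24.4 ± 2.62 (SD, n = 3), 1.92-fold lower. The log2 fold change in the authors' deposited table was -0.85 (SE 0.316, 95% interval -1.47 to -0.24). Its size hung on the siNC libraries: the log2 ratio of means was -0.94 with both, -1.23 without siNC library a and -0.59 without siNC library b. NPR2 shares 329 exon bases with SPAG8 on the opposite strand, which had a mean of 5.25 and a log2 fold change of 0.05 in the authors' deposited table. Whether counting used strand is not stated in what was used here, so some reads could belong to either gene. Of the leukocyte markers 1 of 4 with an adjusted p fell, beside 20.4% of all features. That was CD68, by 0.47 on the log2 scale in the authors' deposited table. The other 3, LYZ (0.93), CSF1R (0.46) and CD14 (-0.05), were not called in the authors' deposited table. The 1 hepatocyte marker with an adjusted p, HNF4A, was not called. The part of leukocytes or hepatocytes, if any were present, in the fall of NPR2 or PDE3A was not tested.

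Per kilobase of exon, NPR1 remained the most abundant receptor transcript in both groups, while the order of NPR2 and NPR3 differed between the groups, which did not hold with coding length. NPR1 made up 85.4% of the summed receptor level per kilobase of exon in siNC and 84.6% in siHOTAIR. The share of NPR2 was 11.6% in siNC and 3.79% in siHOTAIR. NPR3 went the other way, from 3.04% in siNC to 11.6% in siHOTAIR. The ratio of NPR3 to NPR2 levels per kilobase was 0.312 and 0.23 in the siNC libraries and 3.03, 3.72 and 2.52 in the siHOTAIR libraries. Each siNC library thus had more NPR2 than NPR3 per kilobase of exon, and each siHOTAIR library the reverse. Per kilobase of coding length NPR3 stood above NPR2 in all 5 libraries, with ratios of 1.54 and 1.14 in siNC and 15, 18.4 and 12.5 in siHOTAIR. The rise of the ratio did not depend on the length, but which receptor was higher in siNC did. Per kilobase of exon, NPR1 was 28.1 times NPR3 in siNC and 7.32 times in siHOTAIR. These values and the shares above depend on the length used. Over all libraries NPR1 stood at 121 and NPR3 at 12.9 per kilobase of exon, but at 189 and 78.1 per kilobase of coding length. The ratios of NPR3 to NPR2 and of NPR1 to NPR3 use the differences by which the members were known, so they carry no test.

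**Figure D2:**
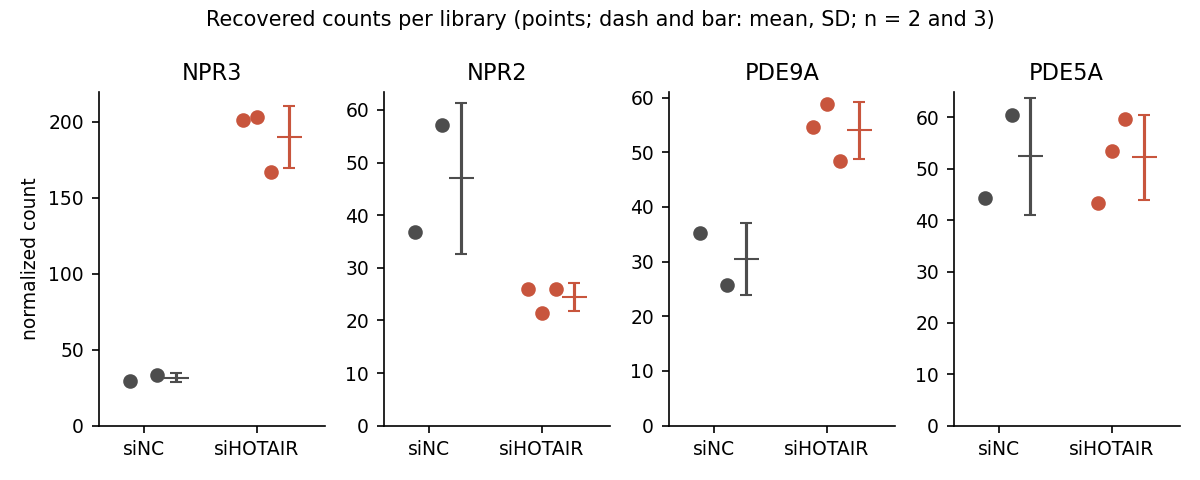
Normalized counts (y axis, from 0, a scale of its own for each gene) of NPR3, NPR2, PDE9A and PDE5A in the 2 siNC and 3 siHOTAIR libraries whose reads were recovered; points are libraries, and the dash and bar beside them are the mean and SD. The groups are apart for NPR3, NPR2 and PDE9A and overlap for PDE5A.

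Groups of libraries did not overlap for 3 of the 4 members with recovered reads and a mean of at least 20 (NPR3, NPR2 and PDE9A). Over all 3504 features with recovered reads and a mean of 20 to 130, 59.6% had groups that did not overlap, and nothing is read from the members' share.

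The cGMP-dependent kinases were barely detected. PRKG1, the kinase isoform that mediates relaxation in smooth muscle, had 3 reads in all 5 libraries: 1 and 0 in siNC, and 1, 0 and 1 in siHOTAIR. PRKG2, the membrane-bound isoform, had 17 reads: 5 and 3 in siNC, and 4, 4 and 1 in siHOTAIR. Normalized counts of PRKG2 were 4.19 and 3.36 in siNC and 3.47, 4.28 and 1.13 in siHOTAIR, so its groups overlapped. The authors' deposited table gives a log2 fold change of 0.07 (SE 0.393) for PRKG1 and -0.18 (SE 0.595) for PRKG2. The SE of PRKG1, with 3 reads, was smaller than that of PRKG2, with 17 reads. For these shrunken fold changes the 95% intervals, -0.70 to 0.84 and -1.35 to 0.98, are therefore not read as precision. Without an adjusted p neither kinase could be called, and how large a difference so few reads would show was not worked out. PRKG1 shares 169 exon bases with PRKG1-AS1 on the opposite strand, which had a mean of 0.392 in the authors' deposited table.

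Of the phosphodiesterases, PDE9A (gene ID 5152), an enzyme selective for cGMP, rose. It was at 35.2 and 25.8 normalized counts in siNC (42 and 23 reads) and at 54.6, 58.9 and 48.4 in siHOTAIR (63, 55 and 43 reads). Every siHOTAIR library lay above both siNC libraries. The mean went from 30.5 ± 6.64 (SD, n = 2) to 54 ± 5.25 (SD, n = 3), a ratio of 1.77. The authors' deposited table gives PDE9A a log2 fold change of 0.76 (SE 0.285, 95% interval 0.20 to 1.32). The log2 ratio of means was 0.82 with both siNC libraries, 1.07 without siNC library a and 0.62 without siNC library b.

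PDE3A (gene ID 5139), which breaks down both cyclic nucleotides and whose breakdown of cAMP is inhibited by cGMP, was the most abundant member and fell. Its mean in the authors' deposited table was 1509, above that of 92.1% of features with an adjusted p, and implies 1816 normalized counts in siNC and 1304 in siHOTAIR. The log2 fold change was -0.48 (SE 0.0714, 95% interval -0.62 to -0.34) in the authors' deposited table, or 1.39-fold lower, which ranked 2451 of 14597 from the lowest. As with NPR1, no library values could be recovered.

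PDE5A (gene ID 8654), the cGMP-specific enzyme that sildenafil inhibits, showed no difference that these libraries could resolve. It was at 44.4 and 60.5 normalized counts in siNC (53 and 54 reads) and at 43.3, 53.5 and 59.7 in siHOTAIR (50, 50 and 53 reads). The groups overlapped, with means of 52.4 ± 11.4 (SD, n = 2) and 52.2 ± 8.28 (SD, n = 3). The log2 fold change in the authors' deposited table was -0.00 (SE 0.262), and its 95% interval of -0.52 to 0.51 spans ratios from 0.699 to 1.43. Changes within that span remain compatible with these values, and the span is not a limit of detection. PDE3A and PDE5A share 404 and 542 exon bases with opposite-strand transcripts that were not analysed here.

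Levels were compared between members only per kilobase of exon, from the deposited means over all libraries. PDE3A stood at 180 normalized counts per kilobase and NPR1 at 121. NPR3 followed at 12.9, NPR2 at 8.66, PDE9A at 8.46 and PDE5A at 5.35. PRKG2 was at 0.642 and PRKG1 at 0.0441. PDE3A was thus 33.6 times PDE5A. This order over all libraries was not that of either group. In siNC, NPR2 (9.53 to 14.8 over libraries) stood above PDE9A (4.89 to 6.68) and PDE5A (4.54 to 6.19), whose ranges overlapped, and NPR3 (2.97 to 3.41) came after them. In siHOTAIR, NPR3 (16.9 to 20.6) came first of these, then PDE9A (9.2 to 11.2), and the ranges of NPR2 (5.54 to 6.72) and PDE5A (4.43 to 6.11) overlapped. For PDE3A and NPR1, a ratio of 1.49, no spread over libraries is known. PRKG2 (0.22 to 0.837) and PRKG1 (0 to 0.0878) had ranges apart from each other and from the rest. With coding length in place of exon length NPR2 moved from 4th to 6th place, after PDE9A and PDE5A.

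**Figure D3:**
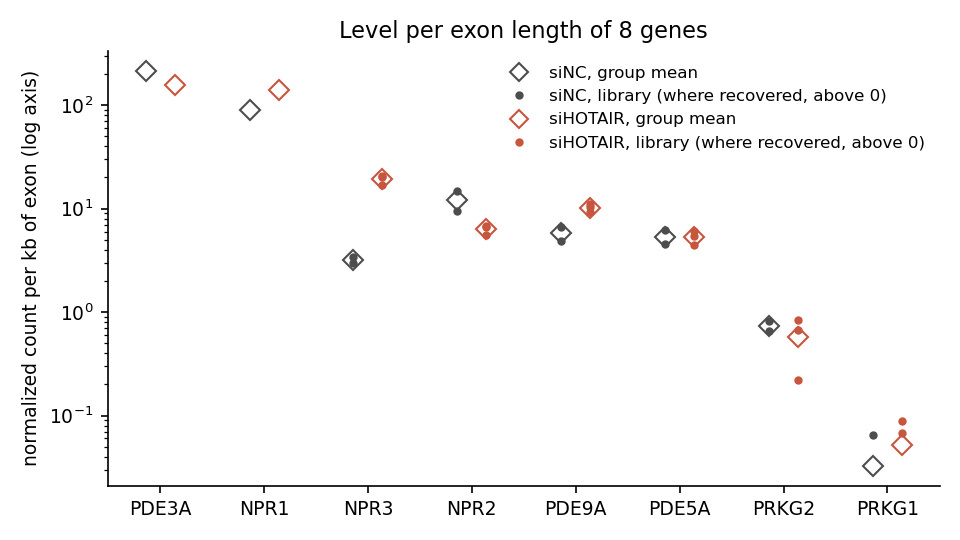
Normalized counts per kilobase of exon (y axis, log scale) of the 8 members in siNC and siHOTAIR. Open diamonds are group means (implied by the deposited mean and fold change for PDE3A and NPR1) and small points are libraries above 0, where recovered; PDE3A and NPR1 lie above the others and the kinases PRKG2 and PRKG1 lowest.

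Beside their enzyme families, PDE9A and PDE5A were minor transcripts. The 12 genes of catalytic subunits that hydrolyse cGMP and had a row summed to 325 normalized counts per kilobase. PDE3A made up 55.2% of that sum, PDE1A, a calcium-activated enzyme, 27.1% and PDE3B, the relative of PDE3A, 9.61%. PDE9A contributed 2.6% and PDE5A 1.64%. Among 8 genes of the cGMP and cAMP kinases, summing to 531 per kilobase, PRKACA, the main catalytic subunit of the cAMP kinase, made up 53.4%, PRKG2 0.121% and PRKG1 0.0083%.

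The wider pathway was described through 9 lists of 81 further genes, of which 67 had a row and 51 an adjusted p. Of those 51 genes 10 rose, 10 fell and 31 were not called in the authors' deposited table. That is 39.2% called, near the 40.4% of all features, and the median log2 fold change was 0.00.

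Genes for the peptides themselves were low. NPPA, the atrial peptide, had 11 and 2 reads in siNC and 0, 3 and 5 in siHOTAIR, and these groups overlapped. NPPC, the C-type peptide, had a mean of 0.907 in the authors' deposited table, and NPPB was not analysed here. CORIN, the protease that activates the atrial peptide, had 2 and 0 reads in siNC and 11, 4 and 3 in siHOTAIR, and was not called. FURIN, a protease that cleaves peptide precursors, had a mean of 2138 and a log2 fold change of 0.07 (SE 0.0689, not called) in the authors' deposited table. IDE, a protease that degrades natriuretic peptides and insulin, fell by 0.38 on the log2 scale (SE 0.0999) in the authors' deposited table. It was the 1 of 4 genes of this list with an adjusted p that was called, beside 40.4% of all features.

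Other guanylate cyclases and their peptides were not called (0 of 2 with an adjusted p, beside 40.4% called over all features). GUCY2F, the retinal membrane cyclase, was at 51.1 and 52.7 normalized counts in siNC and at 50.2, 52.5 and 52.9 in siHOTAIR, with a log2 fold change of 0.00 (SE 0.253) in the authors' deposited table. GUCY1A2, a further subunit of the soluble cyclase, had a mean of 15.6 and a log2 fold change of 0.16 (SE 0.421) in the authors' deposited table. Per kilobase, GUCY2F was at 14 normalized counts, against 121 for NPR1 and 8.66 for NPR2, the members that carry a cyclase. GUCY1A2 was at 0.951 per kilobase and GUCY2D, the other retinal cyclase, at 0.671.

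Nitric oxide, the ligand of the soluble cyclase, is made by synthases that were near 0. NOS1 was listed at a mean of 0, NOS2 had 0.173, and NOS3, the endothelial synthase, had 1 and 0 reads in siNC and 5, 2 and 2 in siHOTAIR. Of the 9 genes of this list with an adjusted p, 3 rose and 1 fell, with a median of 0.11, beside 40.4% called over all features. DDAH1, which removes an inhibitor of the synthases, rose by 0.39 (log2, SE 0.0983) in the authors' deposited table, NOSIP, a synthase-interacting protein, by 0.31 and SPR, which makes the cofactor tetrahydrobiopterin, by 0.32. PTS, an earlier enzyme of that cofactor's synthesis, fell by 0.30 in the authors' deposited table. Not called in the authors' deposited table were CYB5R3 (0.09), DDAH2 (0.11) and QDPR (0.13).

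The list of other phosphodiesterases of the families that hydrolyse cGMP had 8 genes with an adjusted p, of which 2 have no catalytic activity of their own. Of the 6 catalytic genes none rose and 1 fell, with a median log2 fold change of -0.17, beside 40.4% called over all features. PDE10A, which acts on both cyclic nucleotides, fell by 1.02 on the log2 scale (SE 0.174) in the authors' deposited table, the largest change among the 20 called genes of the 9 lists. Of the 2 that are not catalytic, PDE6G was not called, and PDE6D, a carrier of prenylated proteins, fell by 0.53 (SE 0.153) in the authors' deposited table. PDE1A had a log2 fold change of 0.20 (SE 0.103), PDE3B of -0.20 (SE 0.117) and PDE2A of -0.13 (SE 0.42) in the authors' deposited table, and none of these was called. PDE3B, the closest relative of PDE3A, thus had a fold change of the same sign that did not pass.

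Phosphodiesterases selective for cAMP moved both ways: of 8 genes 4 rose and 2 fell, with a median of 0.03. Over all features 20% rose and 20.4% fell. PDE8A rose by 0.54 (SE 0.114), PDE7A by 0.41, PDE4A by 0.39 and PDE4D by 0.26 on the log2 scale in the authors' deposited table. PDE7B fell by 0.99 (SE 0.177) in the authors' deposited table. The other gene that fell was PDE4B, named after its values were seen, at 67 and 62.7 normalized counts in siNC and 40.7, 45 and 34.9 in siHOTAIR. PDE8B (-0.20) and PDE4C (-0.42) were not called in the authors' deposited table.

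Targets of cGMP had mixed values. Among substrates and partners of the cGMP kinases, 3 of 10 rose and 1 fell, with a median of 0.16. That is near the 40.4% called over all features. TNNT1, the slow skeletal troponin T, rose by 0.66 (SE 0.104), RGS2, which speeds the shut-off of G proteins, by 0.40 and CRIP2, a LIM-domain protein, by 0.28 on the log2 scale in the authors' deposited table. GTF2I, a transcription factor, fell by 0.56 (SE 0.1) in the authors' deposited table. Not called were VASP, the usual readout of cGMP kinase activity (-0.08), the myosin phosphatase subunit PPP1R12A (0.08) and the calcium channel ITPR1 (0.12), in the authors' deposited table. Phosphorylation, the step by which these kinases act, was not measured. CNGB1, a subunit of cyclic nucleotide-gated channels, was at 109 and 99.7 normalized counts in siNC and 113, 121 and 160 in siHOTAIR and was not called, whereas CNGA4 and CNGA1 had means of 0.387 and 0.224 in the authors' deposited table.

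Among the genes of the cAMP kinase and its sensors none of 8 rose and 2 fell, with a median of -0.43. The shares over all features were 20% and 20.4%. PRKAR1A, a regulatory subunit, fell by 0.85 (SE 0.086) and PRKAR1B by 0.55 (SE 0.124) on the log2 scale in the authors' deposited table. PRKACA (-0.07), PRKACB (-0.28) and PRKAR2A (-0.35) were not called in the authors' deposited table. The rest of the list, named after their values were seen, were not called there either: PRKAR2B (0.89), RAPGEF3 (-0.50) and RAPGEF4 (-0.81). PRKAR2B and RAPGEF4 had low means, 6.29 and 5.84. ABCC5, a pump that exports cyclic nucleotides, fell by 0.36 (SE 0.0926) in the authors' deposited table, and ABCC11 had a mean of 0.438 there.

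**Figure D4:**
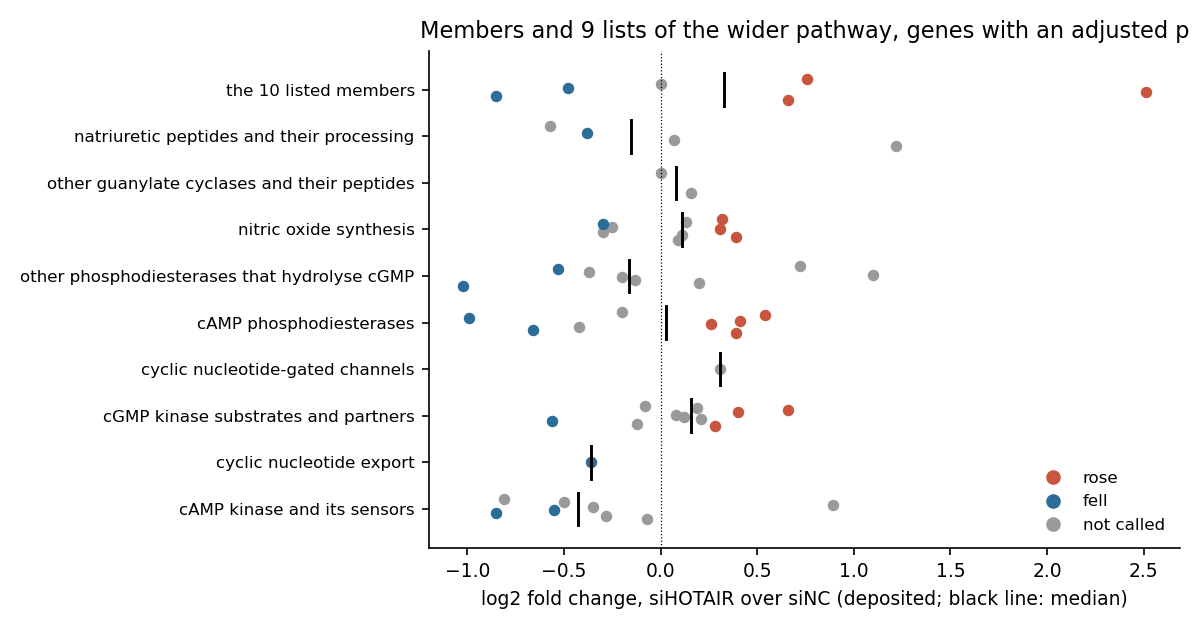
Log2 fold changes (x axis), siHOTAIR over siNC, of each gene with an adjusted p among the members and the 9 pathway lists (rows), as given in the authors' deposited table; colour marks the call and black lines the medians. The medians of the 9 lists lie between -0.43 and 0.31, and NPR3 at 2.51 lies farthest from 0.

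The 3 features whose values over the 5 libraries were most like those of NPR3 were SYCP2, OTOF and IL12RB2. Likeness was the Euclidean distance between centred log2 profiles of normalized counts plus 1, over 3503 features with a mean of 20 to 130. SYCP2, a protein of the meiotic synaptonemal complex, at a distance of 0.445, was at 13.4 and 12.3 in siNC and 67.6, 65.3 and 68.7 in siHOTAIR. OTOF, the otoferlin of inner hair cells, at 0.518, was at 8.37 and 11.2 in siNC and 49.4, 78.2 and 62 in siHOTAIR. IL12RB2, a subunit of the interleukin 12 receptor, at 0.557, was at 10 and 10.1 in siNC and 76.2, 67.4 and 86.7 in siHOTAIR. The median distance was 2.92 and the highest 6.19. PDE9A was at 1.96 (249th), PDE5A at 2.86 (1616th) and NPR2 at 3.81 (3160th). All 5 points of each profile share their libraries, and each distance takes in the difference between siHOTAIR and siNC. Earlier results of that contrast were known when the members were picked, so the distances are a description.

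Of the 10 genes nearest to NPR3 with a row in RefSeq order, 5 on each side, 6 had an adjusted p. Of these 6 none rose and 1 fell. Over all features 20% rose and 20.4% fell, and nothing is read from so few genes. The nearest on one side, SUB1, a transcription coactivator, had a mean of 2294 and a log2 fold change of -0.01 (SE 0.0764) in the authors' deposited table. TARS1, a threonine tRNA ligase and the nearest on the other side, fell by 0.50 (SE 0.0694) in the authors' deposited table. The neighbours not called next to SUB1 were ZFR (-0.11), MTMR12 (0.11) and GOLPH3 (-0.03) in the authors' deposited table, and beyond TARS1 it was AMACR (0.17).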

How the data were processed

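Counts were made by the authors with HTSeq 0.6.1, and DESeq and DESeq2 were used with the genome build hg19, per the submitters' processing notes. Neither the aligner nor the annotation or strand setting was given in the sources used here. Libraries came from a kit that keeps strand, per the labels' protocols. The deposited tables hold 0 columns of single libraries. The deposited signal is each feature's count, scaled by library size factors and averaged over libraries. The authors also deposited log2 fold changes, their standard errors (none above 0.596), a score (fold change over standard error), p-values and adjusted p-values. Adjusted p-values cover 14597 features, and the highest mean without one is 3.73.

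RefSeq symbols were found for 19108 features through the gene ID and for 386 through a transcript accession, leaving 95 unmatched. The number of libraries was read from the means: for 3940 of 3940 features whose mean was above 0 but no more than 2 it is a whole-number sum of 5 steps, each the worth of 1 read in 1 library. The group of a step was read from the sign of the deposited fold changes of features with a single read there. Reads per library had 1 whole-number solution for all 10867 features whose mean was above 0 but no more than 130. The recovery was tested on simulated data. SDs are over these libraries, and their small number limits the precision. Intervals are the deposited fold change with its standard error at the 95% level. Since those fold changes are shrunken, intervals of features with few reads may be too narrow. Exon lengths are from GENCODE 29 and promoters from RefSeq (GRCh38.p14), and no coordinates of that build were joined to hg19. The planned edgeR test needs counts per library for all features and was not run. Python 3.11.15, numpy 2.4.6, pandas 2.3.3, numba 0.67.0 and matplotlib 3.10.9 were used.

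Members and lists were chosen with earlier results of these data known. Named genes were all members, HOTAIR, up to 5 called genes of each list with the smallest p, up to 3 others with the highest mean, and the 3 features most like NPR3. Markers, neighbours and overlapping genes are named beside the results they touch.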

Additional observations from a re-analysis of the deposited data

How the results depend on the processing

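At an adjusted p under 0.01, 3 of the members were called in place of 5. Of these, 2 rose in place of 3 and 1 fell in place of 2. With an adjusted p under 0.001 and a change of at least 2-fold, 1 member was called, 1 rose and 0 fell, and of the pathway genes 1 was called in place of 20, with 0 that rose and 1 that fell in place of 10 each. The shares of all features called at these stricter settings are not given here, so nothing is read from these counts. Adjusting over all features with a p left 5 members and 20 pathway genes called. Coding length in place of exon length kept 6 of 7 adjacent pairs in the order of member levels, and turned the ratio of NPR3 to NPR2 in siNC from 0.262 to 1.3 (in siHOTAIR 3.05 to 15.1), an alternative chosen after seeing the data. Of 45 alternative fold changes of members with recovered reads, 40 were counted as the same and 5 as moved, by a limit that is not the deposited SE. Deposited values are shrunken and the alternatives are not, so these counts are not read as stability. PRKG2 was counted as the same even at -0.72, against -0.18 deposited. For NPR3 those moved were 2.68 scaled by summed reads, 2.70 without siNC library b and 2.68 without siHOTAIR library c. The others moved were NPR2 at -1.23 and PDE9A at 1.07, each without siNC library a. None for NPR2, NPR3 and PDE9A had the other sign, whereas 1 of 9 for PRKG2 and 3 of 9 for PDE5A did, neither of them called. Leaving out 1 library at a time gave log2 ratios of 2.50 to 2.70 for NPR3, -1.23 to -0.59 for NPR2, 0.62 to 1.07 for PDE9A, -0.21 to 0.23 for PDE5A and -0.72 to 0.04 for PRKG2. Scaling by summed reads shifted siHOTAIR against siNC by 0.08 on the log2 scale. No paired analysis was possible because the deposited tables have no column per library and the recovered libraries carry no replicate numbers. The count tests with edgeR and DESeq2 were not run for the same reason, and the deposited tables held no second fold change. NPR1 and PDE3A, whose reads were not recovered, have no alternative fold change. With 2 siNC libraries, the spread of that group rests on 1 difference.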
